A study of Rattus norvegicus with 12 samples.

Results

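The 10 genes described here, Odc1, Azin1, Amd1, Sat1, Sms, Srm, Mtap, Mri1, Apip and Adi1, encode enzymes that make and acetylate polyamines, a regulator of the first of these enzymes (Azin1), and enzymes that return the by-product methylthioadenosine to methionine. They were represented by every probe set to which the array's annotation gave exactly 1 symbol, that symbol being a listed gene, which found 15 of the 20826 singly named probe sets (31099 probe sets in all). Azin1 and Mtap had 3 probe sets each, Sms had 2, and each other gene had 1. The groups were liver of rats given trichloroethylene (TCE), liver of control rats, renal cortex of TCE rats and renal cortex of control rats, with 3 arrays in each group. All were male rats of 7 to 9 weeks and 190 to 240 g, which the labels call Wistar-derived and also F-344. TCE is a chlorinated solvent. The rats were dosed by mouth on 3 days with 16 mg/kg daily, carried in 5 ml/kg of corn oil, and the control rats had only the oil. Tissue was taken 24 h after the last dose, and both tissues came from the same rats.

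Polyamines are small positively charged molecules that bind nucleic acids and are needed for growth. Ornithine decarboxylase (Odc1) makes putrescine, and the aminopropyl groups that turn putrescine into spermidine and spermine come from S-adenosylmethionine that Amd1 has decarboxylated. Each transfer of an aminopropyl group, by Srm or Sms, leaves methylthioadenosine. Mtap cleaves it, and Mri1, Apip, Enoph1 and Adi1 then convert the methylthioribose part into the keto acid of methionine; the Adi1 reaction also releases formate. This salvage does not use vitamin B12, unlike the methionine synthase reaction that the study's title names.

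Expression is given as log2 units of the deposited table, in which 2.17 is the lowest value on every array and a difference of 1 is a doubling of the signal. Array medians were 3.51 to 3.54 in liver and 3.88 to 3.96 in renal cortex, and arrays of 1 group correlated at 0.993 to 0.997 across probe sets. With 3 arrays in a group, the precision of all values is limited by that number. All 6 hepatocyte markers were bright in liver (summed log2 level 87.6 to 88.0 in TCE and 87.5 to 88.8 in control livers), and the 6 proximal tubule markers were bright in renal cortex (73.9 to 74.9 in TCE and 71.3 to 75.5 in control cortex). Some hepatocyte transcripts varied widely among the cortex arrays: Alb, which encodes albumin, had 10.96, 4.36 and 6.31 log2 units in TCE cortex and 9.89, 12.80 and 7.84 in control cortex. Apoa1 and Tat were near the lowest value in cortex. Cyp2e1 was bright there and higher on all TCE arrays, with 12.63, 12.50 and 12.69 in TCE cortex and 11.81, 12.16 and 11.40 in control cortex. A sign of RNA quality, the log2 gap between the 3′ and 5′ control probe sets of Gapdh, was 1.70, 1.56 and 1.21 in TCE livers and 0.78, 0.80 and 0.86 in control livers (exact two-sided permutation p = 0.1, as small as 3 arrays against 3 can give). In cortex it was 0.59, 0.87 and 0.51 after TCE and 1.02, 0.85 and 1.05 in controls (exact permutation p = 0.2). The same gap for Actb overlapped in liver, with 5.67, 5.09 and 5.22 after TCE and 5.24, 4.31 and 4.36 in controls (exact permutation p = 0.3). In cortex it was smaller on all TCE arrays, with 4.36, 4.36 and 4.20 after TCE and 4.49, 4.40 and 4.56 in controls (exact permutation p = 0.1).

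Of the 15 probe sets, 13 were bright enough to be tested in each comparison. Those left out were the dimmest of Azin1, which sat at the lowest value on all 12 arrays, and the dimmest of Mtap, which averaged between 2.18 and 2.33 log2 units in the 4 groups. The tests were made with limma over all probe sets whose mean exceeded the 40th percentile, with Benjamini-Hochberg adjustment and a threshold of 0.05. In these pieces of tissue, fewer cells of a type and less RNA per cell cannot be told apart.

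**Figure D1:**
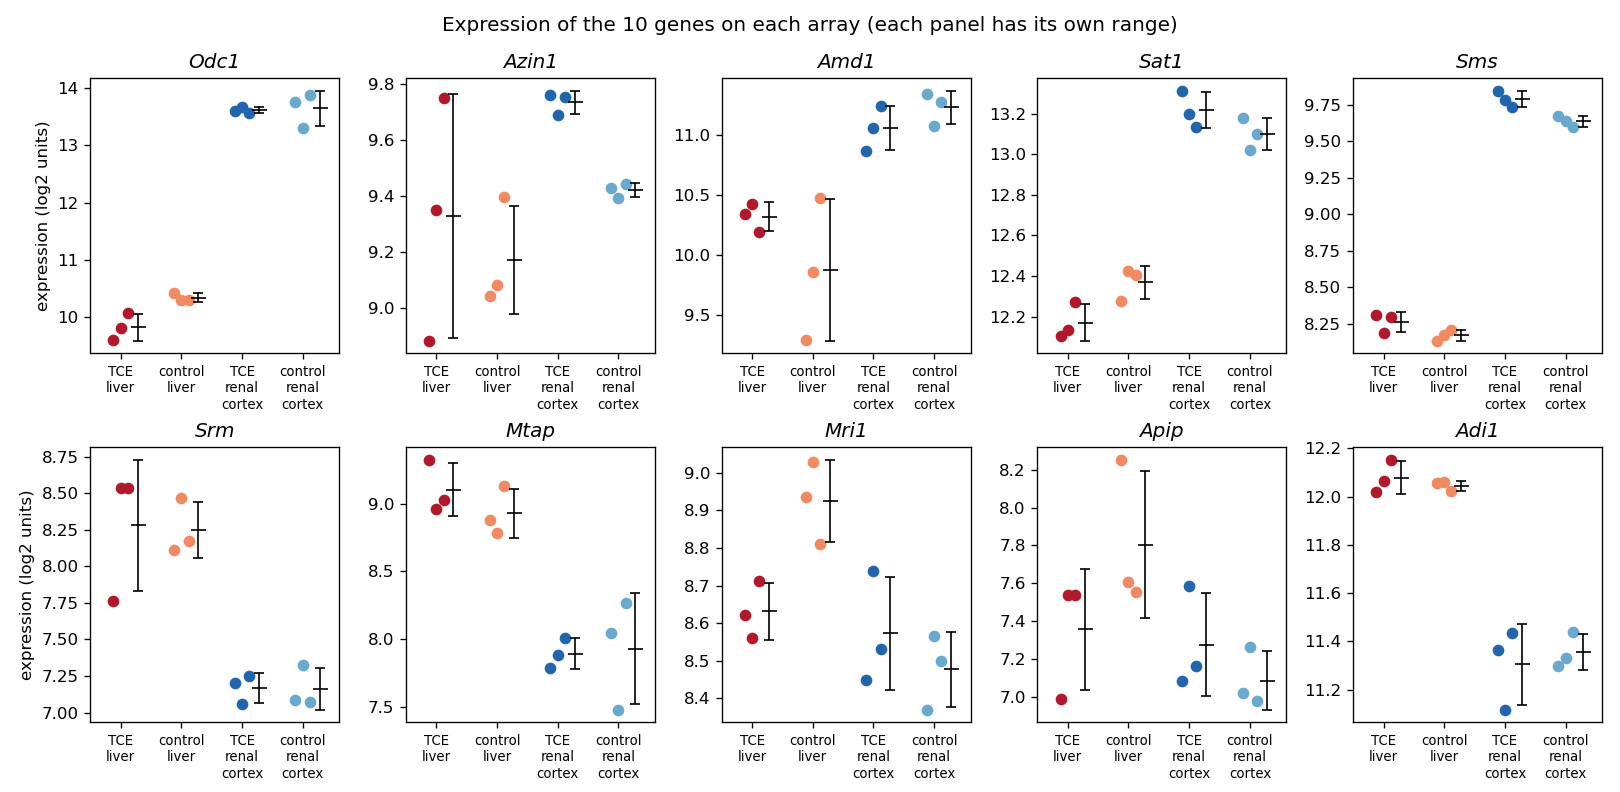
Expression in log2 units (vertical axes, a separate range in each panel) of the brightest probe set of each gene on the 3 arrays of each group (points), with the group mean and SD beside them (bars). Odc1, Amd1, Sat1 and Sms lie lower in liver than in renal cortex, and Srm, Mtap and Adi1 lie higher.

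The clearest differences were between the tissues. Odc1, the rate-limiting enzyme of polyamine synthesis, was 13.9-fold lower in liver than in renal cortex of TCE rats and 9.88-fold lower in control rats. Amd1, Sms and Sat1 were also lower in liver, whereas Srm and the salvage genes Mtap and Adi1 were higher there. In limma's test, 9 of the 13 probe sets differed between the tissues of TCE rats (4 higher and 5 lower in liver), where 61.2% of all probe sets did (26.9% higher and 34.2% lower). In control rats 11 of 13 differed (6 higher and 5 lower), where 61.9% of all probe sets did (26.8% higher and 35.1% lower), so a difference between these tissues was common on the whole array. The 3 liver arrays did not overlap with the 3 cortex arrays for 9 of 13 in TCE rats, where 70.4% of all probe sets did not, and for 12 of 13 in control rats, where 71.2% did not. The comparisons in TCE and in control rats share no array.

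These differences depend in part on how arrays are scaled against each other. Centring each array on its median adds 0.38 to every liver minus cortex difference in TCE rats and 0.41 in control rats (log2), and a further quantile normalization adds a median of 0.13 and 0.16. Of all probe sets past the test, 44.0% were higher in liver in TCE rats and 43.3% in control rats on the deposited values. After quantile normalization the shares were 54.0% and 54.3%, and after centring 66.6% and 67.0%. Among the tested probe sets of the 10 genes, the direction turned with scaling in both tissue comparisons for 1370191_at of Azin1, and in control rats also for 1370575_a_at, as given below. Centring moved further differences by over 1.5 times without ending a call. These were -0.35 for Amd1, -0.66 for Sat1 and -0.71 for 1394243_at of Sms in TCE rats, and -0.32 for Sat1, 0.86 for Mri1, 1.13 for Apip and 1.10 for Adi1 in control rats. Of the differences that had not passed in TCE rats, it gave 0.46 for Apip (adjusted p = 0.0908) and -0.022 for 1370575_a_at of Azin1.

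Odc1 (probe set 1370163_at) had 9.59, 9.80 and 10.07 log2 units in TCE livers and 13.61, 13.67 and 13.57 in TCE renal cortex. Control livers had 10.42, 10.30 and 10.30, against 13.76, 13.30 and 13.87 in control cortex. Every liver array lay below every cortex array, while TCE cortex and control cortex overlapped. The difference, liver minus cortex, was -3.80 ± 0.13 (SE) in TCE rats (limma adjusted p = 5.73e-06) and -3.30 ± 0.16 in control rats (2.34e-05). Of all probe sets tested, 8.86% differed more in size between the tissues of TCE rats and 10.9% between those of control rats.

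Azin1 encodes a relative of ornithine decarboxylase that has no decarboxylase activity of its own and binds antizyme, the protein that inactivates Odc1. Its brightest probe set, 1370575_a_at, averaged 9.33 ± 0.43 log2 units in TCE livers and 9.73 ± 0.04 in TCE cortex, and 9.17 ± 0.19 in control livers and 9.42 ± 0.03 in control cortex (SD, n = 3 each). The liver and cortex arrays overlapped in TCE rats and in control rats. Limma's adjusted p was 0.163 for the difference of -0.41 ± 0.22 in TCE rats and 0.102 for -0.25 ± 0.11 in control rats, with 95% intervals of -0.96 to 0.15 and -0.53 to 0.03. The second probe set, 1370191_at, gave -0.31 ± 0.18 in TCE rats and -0.25 ± 0.10 in control rats. With arrays centred on their medians both turned positive in control rats (0.16 each), and 1370191_at also in TCE rats (0.07). Without liver TCE replicate 3, the brightest of the TCE livers, both passed in TCE rats (-0.62, adjusted p = 0.0283, and -0.50, adjusted p = 0.00816), and without liver control replicate 3 the first passed in control rats (-0.36, adjusted p = 0.00935). Without liver TCE replicate 1, the dimmest, the differences in TCE rats were -0.18 (adjusted p = 0.316) and -0.17 (0.414), and without kidney control replicate 1 that of 1370191_at in control rats was -0.17 (0.144).

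Amd1, the S-adenosylmethionine decarboxylase, had 10.34, 10.43 and 10.19 log2 units in TCE livers and 10.87, 11.06 and 11.24 in TCE cortex. It had 9.29, 9.86 and 10.47 in control livers and 11.34, 11.07 and 11.27 in control cortex. All liver arrays were lower than all cortex arrays. The difference was -0.74 ± 0.12 (SE, limma adjusted p = 0.00329) in TCE rats and -1.36 ± 0.30 (0.0108) in control rats. The 3 control livers spread over 1.18 log2 units, and 92.9% of probe sets above the filter had a smaller SD in that group than Amd1.

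Srm and Sms, which add the first and the second aminopropyl group, went in opposite directions between the tissues. Srm had 7.76, 8.54 and 8.54 log2 units in TCE livers and 7.20, 7.06 and 7.25 in TCE cortex, and 8.11, 8.47 and 8.18 in control livers against 7.09, 7.33 and 7.07 in control cortex. It was higher on every liver array than on any cortex array, by 1.11 ± 0.23 (SE, limma adjusted p = 0.00824) in TCE rats and 1.09 ± 0.13 (0.000843) in control rats. Sms (1375889_at) had 8.31, 8.18 and 8.30 in TCE livers and 9.85, 9.78 and 9.74 in TCE cortex, and 8.13, 8.18 and 8.21 in control livers against 9.68, 9.64 and 9.60 in control cortex. Its difference was -1.53 ± 0.07 (1.82e-05) in TCE rats and -1.47 ± 0.06 (1.33e-05) in control rats. The dimmer Sms probe set, 1394243_at, had 6.10, 6.12 and 6.10 in TCE livers and 6.39, 6.02 and 6.12 in control livers (its cortex values are given further on). It also passed, with -1.09 ± 0.12 in TCE rats and -1.45 ± 0.23 in control rats.

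Sat1, which acetylates spermidine and spermine for breakdown and export, was bright in both tissues. It had 12.10, 12.14 and 12.27 log2 units in TCE livers and 13.31, 13.20 and 13.14 in TCE cortex, and 12.28, 12.42 and 12.41 in control livers against 13.18, 13.02 and 13.10 in control cortex. The tissues were fully apart. Liver was lower, with a log2 difference of -1.05 ± 0.09 (SE, limma adjusted p = 0.000165) in TCE rats and -0.73 ± 0.08 (0.000561) in control rats.

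**Figure D2:**
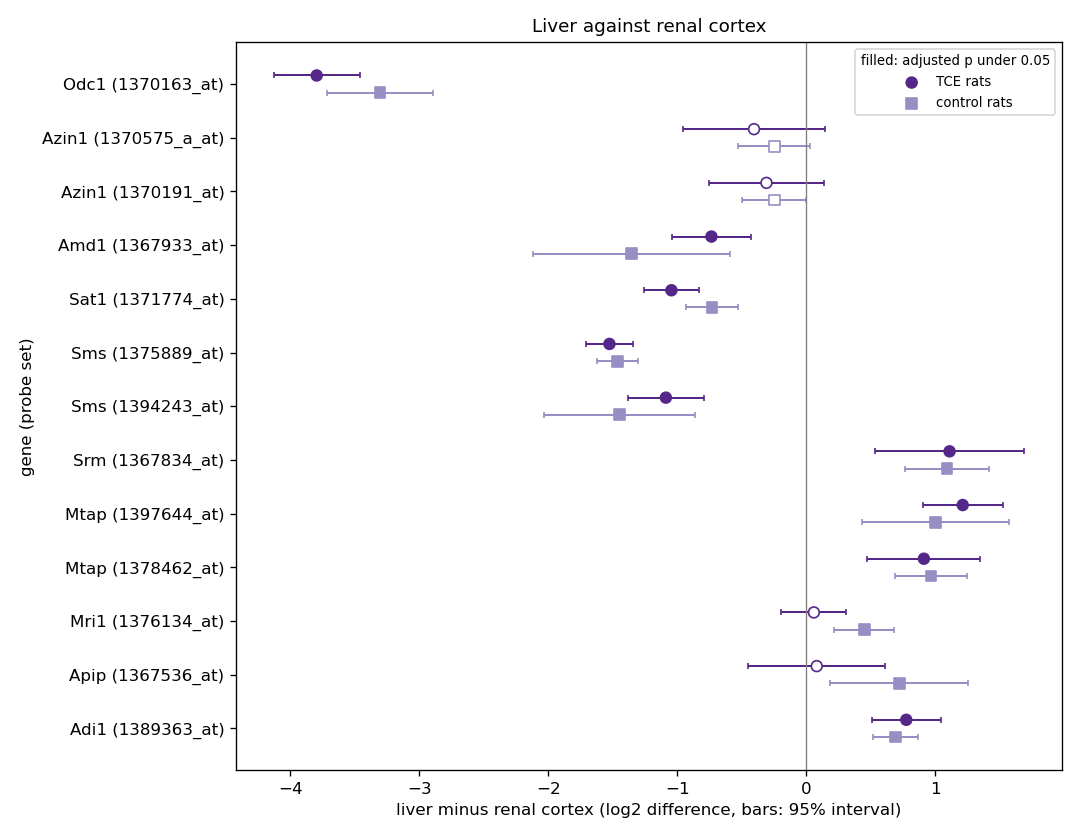
Log2 difference of liver minus renal cortex (horizontal axis) for the 13 tested probe sets of the 10 genes, in TCE rats (circles) and in control rats (squares), with 95% intervals. Filled symbols passed limma's adjusted p of 0.05: Odc1 reached -3.80 and -3.30, the salvage genes lie to the right of 0, and Mri1 and Apip are filled for control rats but open for TCE rats.

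Of the salvage genes, Mtap and Adi1 differed between the tissues in both sets of rats. Mtap, the phosphorylase that cleaves methylthioadenosine, had 9.32, 8.96 and 9.03 log2 units (1397644_at) in TCE livers and 7.79, 7.88 and 8.01 in TCE cortex, and 8.88, 8.78 and 9.13 in control livers against 8.04, 7.47 and 8.27 in control cortex. Liver was higher by 1.21 ± 0.12 (SE, limma adjusted p = 0.000429) in TCE rats and 1.00 ± 0.23 (0.0113) in control rats. All liver arrays lay above all cortex arrays. A second probe set, 1378462_at, had 5.07, 5.75 and 5.43 in TCE livers and 5.65, 5.27 and 5.50 in control livers, and gave tissue differences of 0.91 ± 0.18 in TCE rats and 0.97 ± 0.11 in control rats. Its cortex values lay between 4.50 and 4.51 on all 6 arrays, a repeated low value of that probe set, so these differences depend on where that value lies.

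Adi1, the dioxygenase whose reaction yields the keto acid and formate, had 12.02, 12.07 and 12.15 log2 units in TCE livers and 11.36, 11.12 and 11.44 in TCE cortex, and 12.05, 12.06 and 12.02 in control livers against 11.30, 11.33 and 11.44 in control cortex. The 6 liver arrays lay between 12.02 and 12.15, all above the cortex arrays. The difference was 0.77 ± 0.11 (SE, limma adjusted p = 0.00146) in TCE rats and 0.69 ± 0.07 (0.000388) in control rats.

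Mri1 and Apip, the isomerase and the dehydratase between these steps, passed the tissue test in control rats but not in TCE rats. Mri1 had 8.62, 8.56 and 8.71 log2 units in TCE livers and 8.45, 8.74 and 8.53 in TCE cortex, which overlap, and 8.94, 9.03 and 8.81 in control livers against 8.37, 8.57 and 8.50 in control cortex, which do not. The difference was 0.06 ± 0.10 (SE, limma adjusted p = 0.642) in TCE rats and 0.45 ± 0.09 (0.00795) in control rats. With arrays centred on their medians the TCE rats passed as well (0.44, adjusted p = 0.0148).

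Apip had 6.99, 7.54 and 7.54 log2 units in TCE livers and 7.08, 7.58 and 7.16 in TCE cortex, and 8.25, 7.61 and 7.55 in control livers against 7.02, 7.26 and 6.97 in control cortex. The tissues overlapped in TCE rats and were apart in control rats. The difference was 0.08 ± 0.21 (SE, limma adjusted p = 0.765) in TCE rats and 0.72 ± 0.21 (0.03) in control rats. The call in control rats was lost without kidney control replicate 1 (adjusted p = 0.0908) or 3 (0.0934) and with no filter on dim probe sets (0.0876). Whether the tissue difference itself changed with TCE is the same contrast as the difference of the TCE effects, and neither gene passed that test, as given further on.

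The promoter windows of Srm and Mri1 are shown because they were the only ones among the members' windows to hold either of the sequence elements searched for. RefSeq's promoter table (rat GRCr8) held a window for 9 of the 10 genes, all but Azin1, and the 250 bases before the transcript start were searched on both strands. Of these bases, 0 for Amd1 and Sms and 24 for Odc1 lie before the RefSeq gene record. The sequence upstream of those records was thus largely not searched. The E-box CACGTG, bound by Myc and by the clock factors Bmal1 and Clock, was found in 1 of 9 windows, that of Srm, 173 bases before the start, and in 5.59% of 33469 windows of all genes. The core of the antioxidant response element, bound by Nrf2, was found in 1 of 9, that of Mri1, 169 bases before the start, and in 10.1% of all windows. The Srm window is chr5:164308752-164309001 on the plus strand. For Mri1, chr19:40811882-40812113 on the plus strand is shown, the part of the window that lies before the RefSeq gene record. Capitals mark the element found, and a match of letters is no evidence of binding.
Srm: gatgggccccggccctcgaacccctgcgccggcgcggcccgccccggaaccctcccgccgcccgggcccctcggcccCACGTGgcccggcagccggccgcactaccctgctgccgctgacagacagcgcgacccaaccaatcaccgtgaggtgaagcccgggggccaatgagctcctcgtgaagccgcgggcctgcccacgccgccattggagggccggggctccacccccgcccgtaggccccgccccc
Mri1: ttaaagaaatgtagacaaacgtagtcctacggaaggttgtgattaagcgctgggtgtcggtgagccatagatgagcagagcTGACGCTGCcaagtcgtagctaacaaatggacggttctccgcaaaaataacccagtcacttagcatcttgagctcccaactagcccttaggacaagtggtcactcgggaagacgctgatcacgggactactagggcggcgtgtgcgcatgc

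In liver, the study asked how TCE acts on methionine salvage and formate. None of the 13 probe sets passed limma's test between TCE and control livers, and neither did any other of the 18610 probe sets (0%). Limma called 21 when dim probe sets were kept, and with all 12 arrays in 1 fit 339, among them 0 of the 13. At an unadjusted p under 0.05 there were 2 of 13, against 13.8% of all probe sets. Odc1, Sat1, Mri1 and Apip had all 3 TCE livers below all 3 control livers, 4 of 13, where 8.80% of all probe sets did. The highest TCE and the lowest control liver nearly met for Sat1 (12.274 and 12.277) and for Apip (7.540 and 7.554). All 3 TCE livers lay above for 0 of 13, where 10.4% of all probe sets did.

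Odc1 had the smallest p of the 10 genes in liver. Its TCE livers, given above, averaged 9.82 ± 0.24 log2 units and its control livers 10.34 ± 0.07 (SD, 3 arrays each), which differ by -0.52 ± 0.14 (SE, 95% interval -0.86 to -0.18, limma adjusted p = 0.243). The 3 TCE livers are ordered in Odc1 as they are, inversely, in the Gapdh gap. They have the same order in Azin1 (both tested probe sets), Sat1, Apip and Adi1, so it is not particular to Odc1. When that gap entered the fit as a covariate, the Odc1 difference was 0.11 ± 0.17 (SE, adjusted p = 1). The Gapdh gaps of TCE and control livers do not overlap, so that sign of RNA quality and treatment cannot be told apart; the Actb gaps of the livers do overlap.

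Mri1 averaged 8.63 ± 0.08 log2 units in TCE livers and 8.92 ± 0.11 in control livers (SD, 3 arrays each), which differ by -0.29 ± 0.08 (SE, 95% interval -0.51 to -0.08, limma adjusted p = 0.266). Apip averaged 7.36 ± 0.32 in TCE and 7.80 ± 0.39 in control livers, a difference of -0.45 ± 0.26 (adjusted p = 0.489), which was -0.22 without liver control replicate 1 and -0.26 without liver TCE replicate 1, the brightest and the dimmest of these livers for Apip. Sat1 averaged 12.17 ± 0.09 in TCE and 12.37 ± 0.08 in control livers, a difference of -0.20 ± 0.08 (adjusted p = 0.367). In the fit with the Gapdh gap these differences were -0.10 for Mri1, 0.26 for Apip and 0.02 for Sat1.

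The other members had differences in liver that were smaller than or near their errors. Amd1 gave 0.45 ± 0.31 (SE, limma adjusted p = 0.563), with a 95% interval of -0.33 to 1.22, and 0.15 without liver control replicate 1 but 0.75 without liver control replicate 3. Azin1 (1370575_a_at) spread from 8.88 to 9.75 log2 units among TCE livers and gave 0.16 ± 0.24 (adjusted p = 0.802), or 1.16 ± 0.42 (0.802) in the fit with the Gapdh gap. Its probe set 1370191_at had 8.37, 8.53 and 9.02 in TCE livers and 8.67, 8.59 and 8.53 in control livers, which overlap, and gave 0.04 ± 0.18, or 0.95 ± 0.14 (0.544) in that fit. Mtap (1397644_at) gave 0.17 ± 0.14, Sms (1375889_at) 0.09 ± 0.06 and Srm 0.03 ± 0.25. With 1 array left out Mtap ranged from 0.064 (without liver TCE replicate 1) to 0.27 (without liver control replicate 3). Adi1, the step that releases formate, had 0.03 ± 0.06 (adjusted p = 0.837), with a 95% interval of -0.12 to 0.19. The interval of Srm was wider, -0.60 to 0.66. In the fit with the Gapdh gap Srm had 0.87 ± 0.53 (0.906) and Adi1 0.22 ± 0.14 (0.914).

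The same TCE livers differed from control livers in markers of other cells. The summed log2 level of 5 mesenchymal markers was 32.9 to 35.3 in TCE livers and 30.6 to 31.3 in control livers. Of these only Dcn and Tagln were themselves apart. Acta2 was dim and not higher after TCE, with 2.67, 2.81 and 2.53 in TCE and 2.84, 2.80 and 2.74 in control livers. The sum of 6 cell cycle genes was 26.3 to 29.8 in TCE and 24.3 to 25.5 in control livers. Only Mki67 among them was itself apart, with 4.76, 4.65 and 3.97 in TCE and 3.40, 3.57 and 3.35 in control livers. Pcna, the brightest, had 9.22, 9.41 and 9.48 in TCE and 9.64, 9.47 and 9.44 in control livers. The 2 erythroid markers on the array summed to 18.9 to 21.0 in TCE and 21.4 to 22.7 in control livers. Their part in the differences of Odc1, Sat1, Mri1 and Apip was not tested.

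In renal cortex, none of the 13 probe sets passed either, nor did any of the 18609 tested (0%). With no filter limma called 5, with a stricter filter 1 and with all 12 arrays in 1 fit 26, among them 0 of the 13. At an unadjusted p under 0.05 there were 2 of 13, where 14.5% of all probe sets were. TCE and control cortex did not overlap for 2 of 13, both higher after TCE, where 10.7% of all probe sets were, and for 0 of 13 lower, where 8.80% were.

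The leading member in cortex was Azin1. On 1370575_a_at it had 9.76, 9.69 and 9.75 log2 units in TCE cortex and 9.43, 9.39 and 9.44 in control cortex. Each group spread over less than 0.1, and they were apart. The difference was 0.31 ± 0.05 (SE, 95% interval 0.19 to 0.44), or 1.24-fold, with limma's adjusted p at 0.178. It was 0.30 to 0.34 without any 1 array, 0.28 in the fit with the Gapdh gap and 0.31 with the mean level of Alb, Ttr and Serpina1 as a covariate. The second probe set of Azin1, 1370191_at, had 8.95, 8.89 and 9.00 in TCE cortex and 9.01, 8.78 and 8.74 in control cortex, which overlap, and gave 0.10 ± 0.09 (adjusted p = 0.628).

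Sms gave unlike values from its probe sets in cortex. The brighter, 1375889_at, was higher on all TCE arrays (values above), by 0.15 ± 0.06 (SE, limma adjusted p = 0.318), or 1.11-fold. The dimmer, 1394243_at, had 7.15, 7.01 and 7.42 log2 units in TCE cortex and 7.26, 8.09 and 7.53 in control cortex, a difference of -0.43 ± 0.24 (adjusted p = 0.463), which was -0.20 without kidney control replicate 2 and -0.94 in the fit with the Gapdh gap.

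Odc1 did not separate the cortex groups, with a difference of -0.03 ± 0.16 (SE, limma adjusted p = 0.955). Kidney control replicate 2 had the lowest Odc1 and the lowest Mtap (1397644_at) of the cortex arrays. It also had the highest Alb of them, and the highest of the proximal tubule markers Slc5a2 (10.12) and Slc5a12 (9.13). Without this array the difference was -0.20 for Odc1 and -0.26 for Mtap, against -0.04 for Mtap with it, and neither passed. With the mean level of Alb, Ttr and Serpina1 as a covariate the differences were -0.21 for Odc1 and -0.32 for Mtap. Those of Amd1 and of 1394243_at of Sms were -0.31 and -0.25, and again none passed. The covariate left out the other hepatocyte markers, among them Cyp2e1, which was higher on all TCE cortex arrays. Whether the mix of cells had a part in these values was not tested. Sat1 gave 0.12 ± 0.07, Amd1 -0.17 ± 0.12, Srm 0.01 ± 0.10, Mri1 0.10 ± 0.10, Apip 0.19 ± 0.16 and Adi1 -0.05 ± 0.10, with adjusted p from 0.506 for Sat1 to 0.983 for Srm. With 1 array left out they ranged from 0.069 (without kidney TCE replicate 1) to 0.16 for Sat1 and from -0.26 to -0.079 (without kidney TCE replicate 1) for Amd1. Mri1 ranged from 0.012 (without kidney TCE replicate 2) to 0.16 and Apip from 0.037 (without kidney TCE replicate 2) to 0.29. Podocyte markers (3 on the array) also stood apart in cortex, as did the Actb gap given above. They summed to 24.9 to 26.0 log2 units in TCE and 23.1 to 23.6 in control cortex. The sum of 4 macrophage markers was 15.5 to 16.6 in TCE and 15.2 to 15.4 in control cortex. Of these 4 only C1qa was itself apart, with 7.70, 7.79 and 7.99 in TCE and 7.58, 7.69 and 7.52 in control cortex. Cd68 overlapped and Cd163 was near the lowest value. Clec4f had 3.62, 2.30 and 2.30 in TCE and 2.53, 2.30 and 2.53 in control cortex. The sum of the 6 cell cycle genes overlapped, at 29.5 to 31.7 in TCE and 30.6 to 35.7 in control cortex. Mki67 (4.4 to 4.9 in TCE, 5.3 to 6.3 in control) and Top2a (2.51 to 2.58, 2.73 to 4.01) were apart and lower after TCE. Pcna was apart and higher (10.41 to 10.65, 10.25 to 10.30). Of their 8 tested probe sets 7 were lower and 1 higher, with 0 past limma's test. In the difference of the TCE effects 1 of the 8 passed, with a positive value. The part of these markers and of the Actb gap in the Azin1 and Sms values was not tested.

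**Figure D3:**
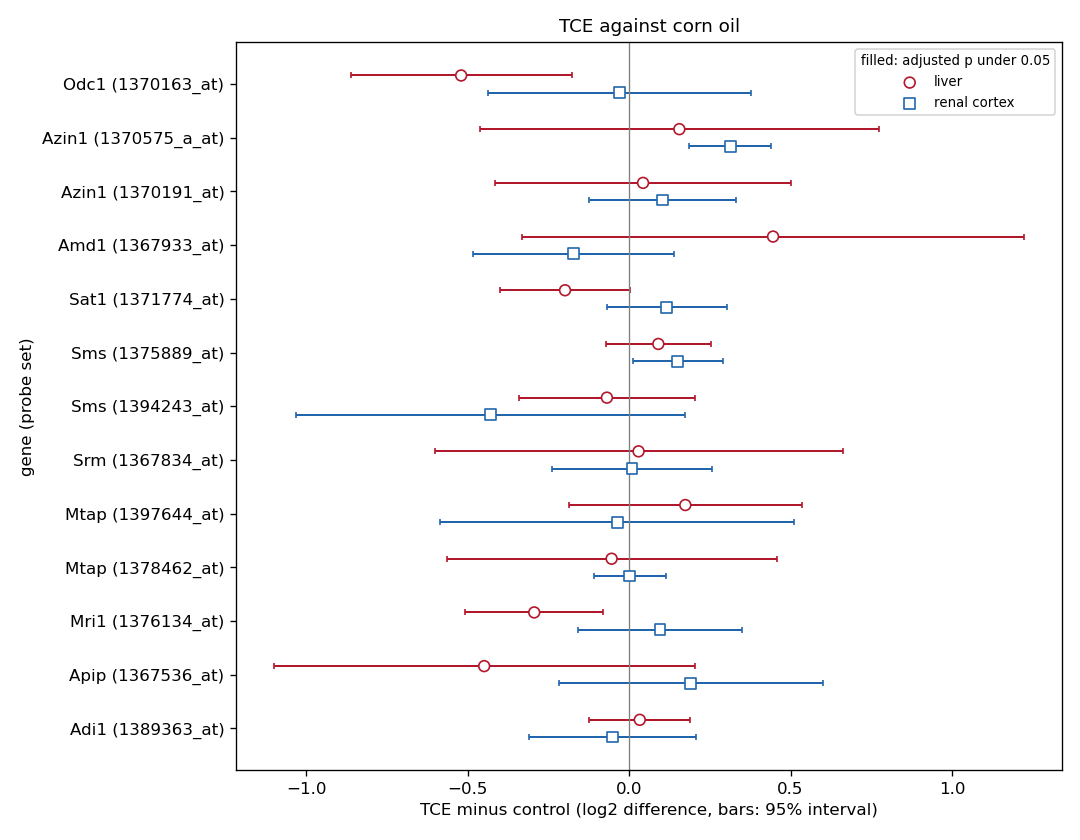
Log2 difference of TCE minus control (horizontal axis) for the 13 tested probe sets, in liver (circles) and renal cortex (squares), with 95% intervals. All symbols are open because none passed limma's adjusted p of 0.05; the intervals of Odc1 and Mri1 in liver and of Azin1 (1370575_a_at) and Sms (1375889_at) in cortex do not reach 0.

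The difference between the TCE effects, liver minus renal cortex, was tested over all 12 arrays. Of all probe sets 1.06% passed, and 0 of the 13 did. The number of all probe sets past the test was 198, between 40 without kidney control replicate 1 and 411 without liver TCE replicate 3 when 1 array was left out, 448 with array weights and 57 with 1 probe set a gene. Mri1 had -0.39 ± 0.14 (SE, limma adjusted p = 0.203), Sat1 -0.32 ± 0.12 (0.222), Odc1 -0.49 ± 0.22 (0.284), Apip -0.64 ± 0.32 (0.328) and Amd1 0.62 ± 0.34 (0.382). With 1 array left out Odc1 ranged from -0.61 to -0.32 (without kidney control replicate 2) and Apip from -0.76 to -0.42 (without liver control replicate 1). Amd1 ranged from 0.33 (without liver control replicate 1) to 0.92 (without liver control replicate 3). At an unadjusted p under 0.05 there were 2 of 13, against 17.7% of all probe sets. So the TCE effects of liver and cortex are not shown to differ for any of the 10 genes.

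Genes of the neighbouring steps were compared between the tissues as well. Probe sets of 29 genes were analysed here, and 29 of 36 probe sets (25 genes) were tested between the tissues. In TCE rats 7 were higher and 16 lower in liver, where 26.9% of all probe sets were higher and 34.2% lower. In control rats 6 were higher and 13 lower, where 26.8% and 35.1% of all were. Centring turns the balance over all calls towards liver, as given above. The median difference, liver minus cortex, was -0.83 in TCE rats and -0.32 in control rats, where it was -0.05 and -0.07 over all probe sets.

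Transcripts of isoenzymes differed between the tissues at several steps. For the supply of S-adenosylmethionine, Mat1a, the liver form of methionine adenosyltransferase, averaged 13.92 log2 units in TCE livers and 2.64 in TCE cortex, and 14.00 in control livers and 2.58 in control cortex. Mat2a, the form of other tissues (1371350_at), averaged 10.21 in TCE livers and 13.98 in TCE cortex, and 9.91 in control livers and 14.35 in control cortex. Mat2b, the regulatory subunit of Mat2a, was lower in liver, at -1.23 ± 0.09 (SE, limma adjusted p = 0.000104) in TCE rats and -0.96 ± 0.09 (0.00031) in control rats.

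Ornithine, the substrate of Odc1, is made and used by enzymes whose transcripts differed as well. Arg1, the cytosolic arginase of the urea cycle, averaged 15.00 log2 units in TCE livers and 4.11 in TCE cortex, and 15.06 in control livers and 5.51 in control cortex. Arg2, the mitochondrial arginase, averaged 2.31 in TCE livers and 9.47 in TCE cortex, and 2.31 in control livers and 9.70 in control cortex. Otc, which uses ornithine in the urea cycle, was near the lowest value in cortex, and Oat, which breaks ornithine down, was lower in liver, at -1.88 ± 0.10 (SE, limma adjusted p = 2.98e-05) in TCE rats and -1.57 ± 0.19 (0.000853) in control rats. Differences of Mat1a, Arg2 and Otc depend on the lowest value of the table, near which their dim tissue lay.

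In the last salvage step, the transfer of an amino group to the keto acid, Kyat3 was higher in liver by 3.50 ± 0.10 (SE, limma adjusted p = 2.17e-06) in TCE rats and 3.21 ± 0.08 (1.52e-06) in control rats. Kyat1 was lower, at -2.41 ± 0.11 (1.7e-05) and -2.67 ± 0.08 (3.43e-06). Both encode aminotransferases that accept several amino acids. Nit2, the omega-amidase that removes the product of such transfers, was higher by 0.32 ± 0.10 (0.0391) and 0.60 ± 0.09 (0.00247). Enoph1, the enolase-phosphatase between Apip and Adi1, did not pass, with 0.15 ± 0.07 (0.111) in TCE rats and -0.02 ± 0.06 (0.765) in control rats.

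A further list held antizymes, polyamine oxidases and Sat2. Of these Oaz1, an antizyme, did not pass between the tissues. It had -0.17 ± 0.07 (SE, limma adjusted p = 0.0877) in TCE rats and 0.03 ± 0.08 (0.758) in control rats. Oaz2, a second antizyme, was lower in liver, at -0.83 ± 0.07 (1388454_at, 0.000195) and -0.63 ± 0.11 (0.00339), and its other probe set passed only in TCE rats (-0.94 ± 0.14). Sat2, a relative of Sat1, was lower, at -2.58 ± 0.11 (1.38e-05) and -2.03 ± 0.12 (4.87e-05). Paox, the acetylpolyamine oxidase, was higher by 0.50 ± 0.08 (0.00299) and 0.48 ± 0.09 (0.00437).

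In transport, 4 of 6 tested probe sets were lower and 1 higher past the test in liver of TCE rats, and 3 were lower and 0 higher in control rats. The protein modification by hypusine uses spermidine. Of 5 tested probe sets of 4 hypusine genes, 3 were lower in TCE rats and 2 in control rats, with 0 higher in both. Beside these counts of both lists, 34.2% of all probe sets were lower and 26.9% higher in TCE rats. In control rats 35.1% of all were lower and 26.8% higher. Slc22a2, an organic cation transporter of the renal tubule, averaged 2.78 log2 units in TCE livers and 13.49 in TCE cortex, and 2.90 in control livers and 13.68 in control cortex. Slc7a1, a transporter of cationic amino acids, was lower in liver on both probe sets, at -1.93 and -2.37 in TCE rats and at -1.68 and -2.18 in control rats. Slc3a2 (-1.03 ± 0.11 SE, limma adjusted p = 0.000501) and Atp13a2, a lysosomal polyamine exporter (0.35 ± 0.10, 0.0234), passed in TCE rats only. Eif5a, the protein that receives hypusine from spermidine, did not pass in either set of rats, its relative Eif5a2 was lower in liver on both probe sets, and Dhps, which starts hypusine formation, passed only in TCE rats (-0.39 ± 0.14, 0.0497). That a gene passed in 1 set of rats only does not show a difference between the sets, and none of these genes passed the test of the difference of the TCE effects.

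**Figure D4:**
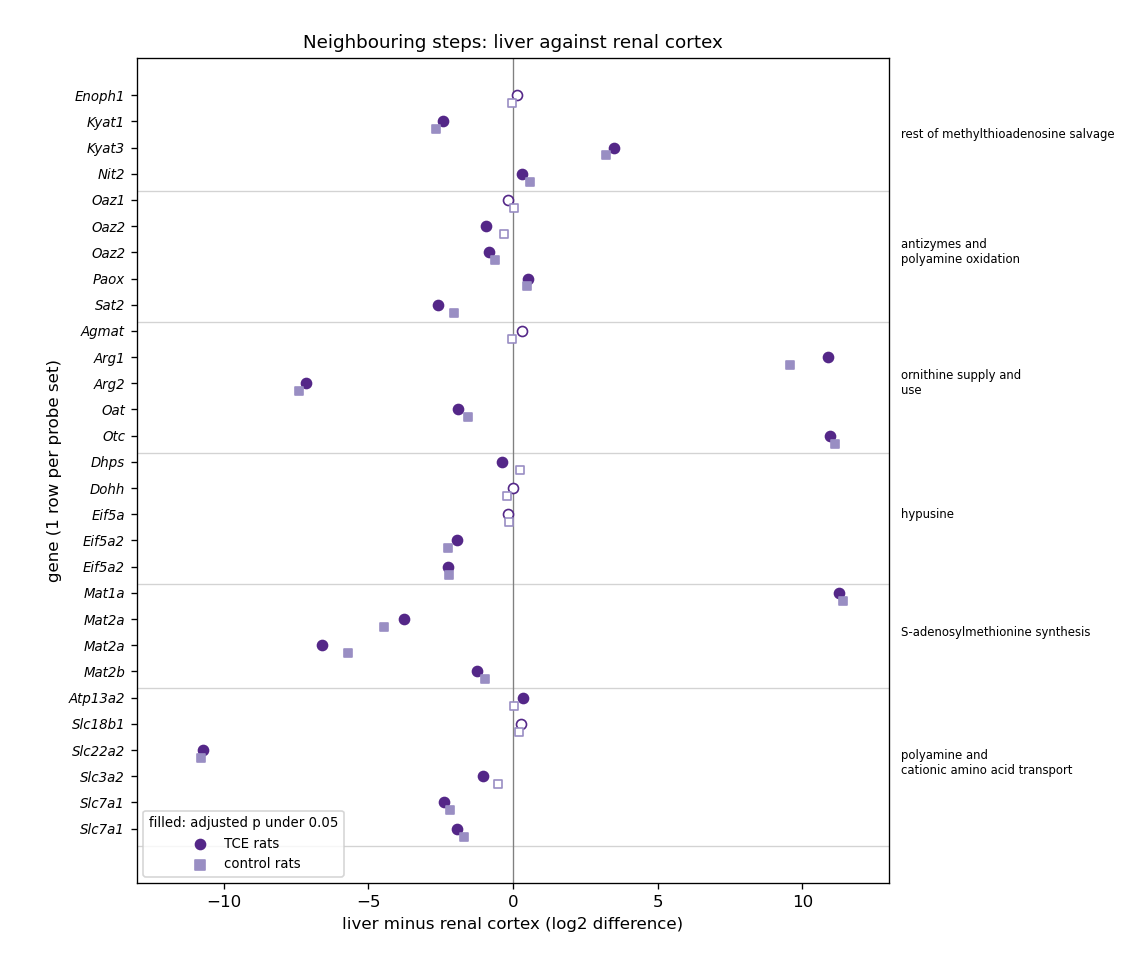
Log2 difference of liver minus renal cortex (horizontal axis) for the 29 tested probe sets of the neighbouring steps, in TCE rats (circles) and control rats (squares); rows are probe sets, grouped by step, and filled symbols passed limma's adjusted p of 0.05. Mat1a, Arg1 and Otc lie far to the right and Slc22a2, Arg2 and Mat2a far to the left in both sets of rats.

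Between TCE and control rats, 0 of the 28 tested probe sets of the neighbouring steps passed in liver and 0 in cortex. At an unadjusted p under 0.05 there were 4 of 28 in liver and 4 of 28 in cortex, near the 13.8% and 14.5% of all probe sets. The list medians lay at -0.09 in liver and -0.01 in cortex (log2, TCE minus control), where all probe sets had 0.02 and 0.00. In liver the smallest p were those of Oaz2, at -0.32 ± 0.10 (1388454_at; SE, limma adjusted p = 0.293), and Sat2, at -0.42 ± 0.14 (0.302). The second Oaz2 probe set gave -0.59 ± 0.22. Enoph1 (0.17 ± 0.07, 0.358) and Kyat3 (0.12 ± 0.07, 0.513) led the salvage steps, Otc (-0.23 ± 0.13) and Agmat (0.12 ± 0.09) those of ornithine, and Mat2b (-0.11 ± 0.09) and Mat2a (1387737_at, -0.61 ± 0.56, with 0.30 ± 0.35 from the brighter 1371350_at) those of S-adenosylmethionine. Eif5a (-0.08 ± 0.06) and Eif5a2 (1393063_at, 0.18 ± 0.20) led the hypusine genes, and Atp13a2 (0.12 ± 0.07) and Slc3a2 (-0.31 ± 0.22) the transporters.

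In cortex the smallest p of a neighbouring gene were those of Mat2a, at -0.37 ± 0.10 (1371350_at; SE, limma adjusted p = 0.241) with 0.29 ± 0.20 from its other probe set, and Dhps, at 0.56 ± 0.16 (0.251). Dohh, the enzyme that completes hypusine, had -0.17 ± 0.08, and Mat2b had 0.16 ± 0.08. Arg1 had -1.40 ± 0.49 (0.308). The summed log2 level of the hepatocyte markers, Cyp2e1 included, spread widely, from 28.3 to 37.8 in TCE and 31.3 to 44.2 in control cortex. The part of these markers in the Arg1 value was not tested. Agmat had -0.22 ± 0.11, Kyat1 -0.15 ± 0.07, Kyat3 -0.16 ± 0.09, Oaz2 (1388454_at) -0.12 ± 0.06, Sat2 0.12 ± 0.08, Slc18b1, a vesicular polyamine transporter, -0.19 ± 0.07 and Atp13a2 -0.17 ± 0.10.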

How the data were processed

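The authors deposited a single table of log2 values, 1 per probe set and array, for GeneChip rat genome arrays; the values reach from 2.17 to 16.5, from which the log2 scale was inferred. Per the submitters' processing notes affy and limma served to make it. How background, normalization and summary were done was not stated in these notes or the labels. Values were tested as deposited with limma 3.58.1 in R 4.3.3 (lmFit, eBayes, two-sided), per probe set, on probe sets other than controls whose mean over the arrays of a fit exceeded the 40th percentile, with Benjamini-Hochberg adjustment over all of them and no covariates. SE and 95% intervals are limma's. The difference of the TCE effects used all 12 arrays, each other fit 6. Groups come from the tissue and the case or control word of each title, and the arrays of a group are different rats. Tissue comparisons treated liver and cortex of the same rats as independent. Replicate numbers are shared between groups, but no correlation of same-numbered arrays' deviations from their group means exceeded 0.1 (-0.08 to 0.03 between TCE and control arrays, 0.01 to 0.08 between liver and cortex), and the labels tie no number to a rat, so they were not used as pairs. Exact permutation served for single values per array. Marker sums add the log2 levels of the brightest probe set of each marker. The 10 genes and the lists of neighbouring genes and markers were chosen with earlier results of these data known. Neighbouring genes were named where they passed a test or, where none of their list passed, as the 2 smallest p of the list; Agmat, Enoph1, Oaz1 and Eif5a, which did not pass between the tissues, and further probe sets of a named gene were added after their values were seen. All 15 probe sets matched a current RefSeq symbol. No arrays were identical. The fits were checked on simulated data. Of 100 added log2 changes of size 1, 45 passed between TCE and control in liver and 53 in cortex. Of 100 changes of size 2, 68 passed in liver and 90 in cortex. Changes of these sizes could thus be missed. Among probe sets without an added change, 6 passed in liver and 11 in cortex. No change smaller than 1 was simulated. Alternatives were the filter, 1 probe set a gene, further scaling, a replicate block, weights for arrays, robust variances with a trend, 1 fit of all 12 arrays and each array left out; the covariates were added after seeing the data.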

Additional observations from a re-analysis of the deposited data

How the results depend on the processing

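With 3 arrays in a group and depositors' values whose normalization is unknown, a difference between tissues depends on scaling, and dim probe sets have only a bound. Of the 10 genes' probe sets, 0 passed in either TCE comparison or in the difference of the TCE effects under any alternative or with any array left out, while 7 to 11 passed between the tissues of TCE rats and 9 to 12 between those of control rats. The cause of the changes that follow was not tested. Over all probe sets, calls in liver numbered 21 with no filter and 339 with all 12 arrays (0 to 1 with 1 array left out). In cortex they numbered 5 with no filter, 1 with the stricter filter and 26 with all 12 arrays. The difference of the TCE effects had 57 calls with 1 probe set a gene, 448 with array weights and 50 with the replicate block (40 to 411 with 1 array left out). With 1 probe set a gene, which tests fewer, the tissues gave 7194 calls in TCE rats and 7308 in control rats. With the replicate block Apip missed the threshold between control tissues (adjusted p = 0.0556), and no other call of the 10 genes changed; the control arrays of liver and cortex each correlated best with their own number (3 of 3), those of TCE rats in 2 of 3.

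Signs turned as follows, none of them for a called difference. With the Gapdh gap as a covariate, liver had 0.11 for Odc1, -0.040 for Amd1, 0.017 for Sat1, -0.18 and 0.23 for Mtap (1397644_at and 1378462_at) and 0.26 for Apip, and cortex had 0.26 for Odc1, -0.22 for Srm and 0.22 for Mtap (1397644_at). Quantile normalization gave Srm -0.0038 in liver, -0.0011 in cortex and -0.0030 in the difference of effects, where centring gave -0.0061 and array weights -0.036. With array weights Mtap (1378462_at) had 0.024 in liver and 0.020 in the difference of effects. Between the tissues, centring gave 0.074 for Azin1 (1370191_at) in TCE rats and 0.16 for Azin1 on both probe sets in control rats. With 1 array left out, liver ranged from -0.056 to 0.38 for Azin1 (1370575_a_at), -0.15 to 0.18 for Azin1 (1370191_at), -0.15 to 0.037 for Sms (1394243_at), -0.10 to 0.29 for Srm, -0.22 to 0.12 for Mtap (1378462_at) and -0.0036 to 0.063 for Adi1. Cortex ranged from -0.20 to 0.085 for Odc1, -0.037 to 0.092 for Srm, -0.26 to 0.13 for Mtap (1397644_at) and -0.12 to 0.044 for Adi1. The difference of effects ranged from -0.37 to 0.065 for Azin1 (1370575_a_at), -0.25 to 0.075 for Azin1 (1370191_at), -0.11 to 0.28 for Srm, -0.22 to 0.12 for Mtap (1378462_at) and -0.011 to 0.15 for Adi1. Between the tissues of TCE rats the range was -0.0045 to 0.14 for Mri1 and -0.017 to 0.26 for Apip.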
